A study of Mus musculus with 12 samples.

Results

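The genes described here mark the cells of brain blood vessels. There were 30 of them among the 43629 gene IDs of the count table, chosen by function and found by matching Ensembl IDs to symbols, and all 30 were found and passed the filter on low counts. The endothelial and barrier group held 17 genes and the mural group, of pericytes and smooth muscle, held 13. Poly(A) RNA had been sequenced from frozen, pulverised mouse forebrain in 12 libraries, 3 for each combination of treatment and labelled sex. Collagen domain mice, male and female, had been injected as newborns in the brain ventricles with rAAV, a recombinant viral vector for gene transfer, that carried a collagen domain construct. PBS mice, male and female, had been given buffer alone by the same route, and all were 3 months old at collection. The series title ties the construct to C1qTNF3, which cells secrete. Vector and construct came together in every treated mouse, and what each of them did cannot be told apart. The labels give neither the promoter that drives the construct nor the mouse strain, and do not say that each sample was a separate mouse, so each p-value speaks only of variation from library to library.

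Brain capillaries are tubes of endothelial cells sealed by tight junctions, which force nutrients and drugs through selective transporters and pumps: this seal is the blood-brain barrier. Pericytes share the capillary wall with the endothelium and are held there by PDGF-B that endothelial cells secrete, while contractile smooth muscle cells wrap the arterioles. VEGF and angiopoietin receptors on the endothelium keep the network alive and adjust its growth and leakiness.

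Reads contradicted some labels. C1qtnf3, the mouse gene of the named protein, had 2612 to 4966 reads in 4 of 6 collagen domain libraries, but 23 and 8 reads in those labelled collagen domain females 1 and 3. Among the 6 PBS libraries 4 had 12 to 28 reads, while the libraries labelled PBS female 2 and PBS male 1 had 1071 and 2675. Xist and Ddx3y, read as a check of sex, went against the label in collagen domain male 3, collagen domain female 1, PBS male 1 and PBS female 2. In total, 5 of 12 libraries went against the treatment label (4) or the sex label (4), 3 of them against both. Every comparison by label rests on these libraries, and the treatment results are also given without them. The hindbrain list (12 genes of cerebellum and brainstem) summed to 365 to 816 CPM (counts scaled to library size) in collagen domain male 2, collagen domain female 2, PBS male 3, PBS female 2 and PBS female 3, and to 13.4 to 32.6 CPM in the other 7. Among those 7 libraries, 6 had between 2 and 4 of the 12 hindbrain genes at 0 reads. Libraries held 39272127 to 52323985 reads.

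The defining markers of both vascular compartments were read in every library. Levels compared between genes are CPM per kilobase of exon, as mean ± SD over the 12 libraries. Among junction and adhesion genes, Cldn5, the main claudin of the barrier's tight junctions, stood at 12.8 ± 1.52 CPM per kb. Ocln, the tight junction protein occludin, stood at 2.48 ± 0.304 CPM per kb, Cdh5, the adherens junction cadherin, at 2.23 ± 0.423, Pecam1, the adhesion molecule CD31, at 2.15 ± 0.350 and Esam, another adhesion molecule, at 3.28 ± 0.444. The level of Cldn5 per kilobase was thus the highest of these 5, while Cdh5 and Pecam1 differed by less than their spread.

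Among growth factor receptors, Flt1 and Tek overlapped these levels per kilobase by mean ± SD, while Kdr and Tie1 lay below them. Flt1, the VEGF receptor 1 that also traps VEGF, stood at 3.07 ± 0.615 CPM per kb and Kdr, the main signalling VEGF receptor, at 0.956 ± 0.174. Tek, the angiopoietin receptor, stood at 2.18 ± 0.292 CPM per kb and Tie1, its partner receptor, at 1.37 ± 0.237. Transporters and membrane proteins of the barrier endothelium held the 3 highest levels of the endothelial group. Itm2a, a membrane protein enriched in brain endothelium, reached 36.9 ± 6.21 CPM per kb, the highest level of all 30 members, and Slc2a1, the glucose transporter GLUT1, 21.2 ± 2.44. Ly6c1, a surface marker of mouse brain endothelium, had 17.3 ± 2.43 CPM per kb and Slco1a4, an organic anion transporter, 8.86 ± 1.15. Mfsd2a, which carries omega-3 lipids across the barrier and limits vesicle traffic, had 6.98 ± 0.871 CPM per kb and Abcb1a, the drug efflux pump P-glycoprotein, 5.80 ± 0.839. Egfl7, a protein secreted by endothelium, had 3.20 ± 0.284 CPM per kb, and Vwf, von Willebrand factor of larger vessels, 0.716 ± 0.339. Levels of Ly6c1, Rgs5 and Vtn lay within each other's spread.

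Pericyte genes spanned a wide range of levels. Rgs5, a brake on G protein signalling, had 17.03 ± 2.97 CPM per kb and Vtn, the matrix protein vitronectin, 16.8 ± 2.66. Pdgfrb, the receptor for PDGF-B, stood at 2.14 ± 0.312 CPM per kb and Notch3, the Notch receptor of mural cells, at 1.18 ± 0.251. Kcnj8 and Abcc9, pore and regulatory subunits of the ATP-sensitive potassium channel of pericytes, stood at 0.955 ± 0.137 and 0.547 ± 0.0721 CPM per kb. Anpep, the aminopeptidase CD13, had 0.569 ± 0.137 CPM per kb. Higd1b and Ndufa4l2, a pair of mitochondrial protein genes that mark pericytes, had 1.83 ± 0.663 and 0.993 ± 0.222 CPM per kb. Among contractile genes of smooth muscle, Acta2, the smooth muscle actin, had 2.90 ± 0.452 CPM per kb, Tagln (transgelin) 2.86 ± 0.369, and Myh11, the smooth muscle myosin heavy chain, 0.718 ± 0.134. Cnn1, calponin, was the lowest member at 0.152 ± 0.0344 CPM per kb, from 12 to 24 reads a library.

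The spread of the vascular genes between libraries was read on the log2 scale. The SD of log2(CPM + 1) over the 12 libraries ran from 0.0953 to 0.484 with a median of 0.203. Over all genes tested the median was 0.135, as a description. The genes were not matched for level, so this does not show that vascular genes varied more. The added 1 lowers the SD of weakly read genes: Cnn1 had the lowest, 0.0953, over a 2.22-fold span, and Cldn5 had 0.160 over 1.37-fold. For 24 of the 30 members the highest library stayed under 2-fold of the lowest. The widest span was that of Vwf, 4.07-fold, followed by Higd1b at 3.08-fold and Ndufa4l2 at 2.70-fold, while Cldn5 and Egfl7 spanned 1.37-fold and 1.38-fold. PBS male 2 was the lowest library for 6 of 17 endothelial and 2 of 13 mural genes. Collagen domain male 2 was the highest for 4 endothelial genes (Pecam1, Flt1, Esam and Vwf), and collagen domain female 3 for 4 mural genes (Rgs5, Acta2, Tagln and Myh11).

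**Figure D1:**
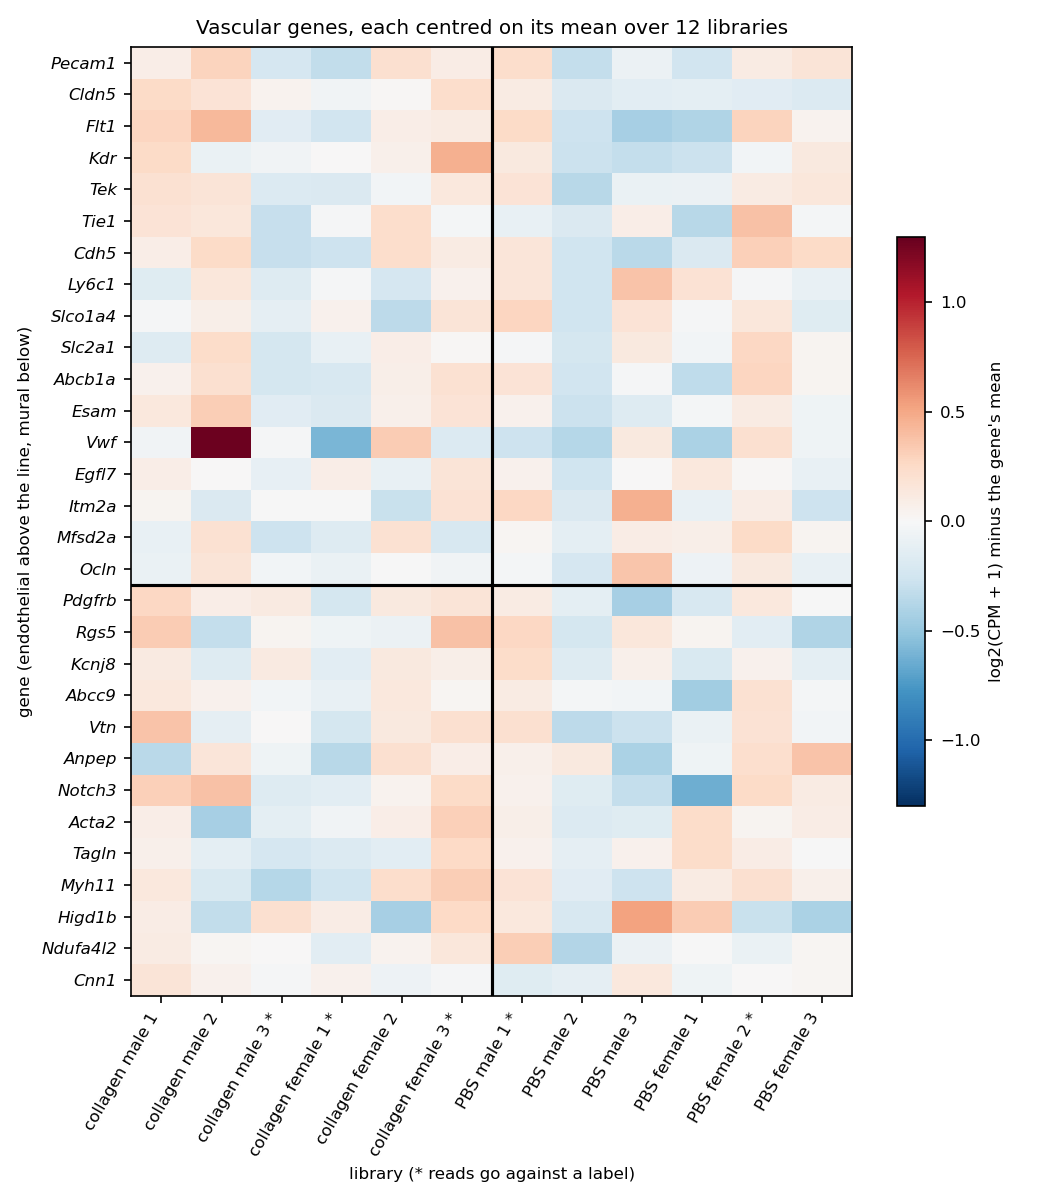
Level of each of the 30 vascular genes (rows) in each of the 12 libraries (columns), as log2(CPM + 1) minus the gene's own mean, red above and blue below it. Stars mark the 5 libraries whose reads go against a label. Collagen domain columns (left) and PBS columns (right) both hold red and blue rows, and the strongest cell is Vwf in collagen domain male 2.

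Endothelial and mural sums were set side by side in each library, and their correlation was not tested. The 17 endothelial genes summed to 378 to 481 CPM (median 418) in the 6 collagen domain libraries, against 352 to 471 CPM (median 428) in the 6 PBS libraries. The 13 mural genes summed to 144 to 199 CPM (median 161) with collagen domain, against 137 to 187 CPM (median 156) with PBS, so both sums overlapped between treatments. Rgs5 and Vtn, both pericyte genes, are the largest terms of the mural sum. The mural sum over the endothelial sum was lowest in collagen domain male 2, at 0.298, and highest in collagen domain male 1, at 0.462. This ratio ran from 0.298 to 0.3975 in libraries high in hindbrain genes and from 0.375 to 0.462 in those low in them. In bulk tissue, fewer cells of a type and less RNA per cell cannot be told apart.

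**Figure D2:**
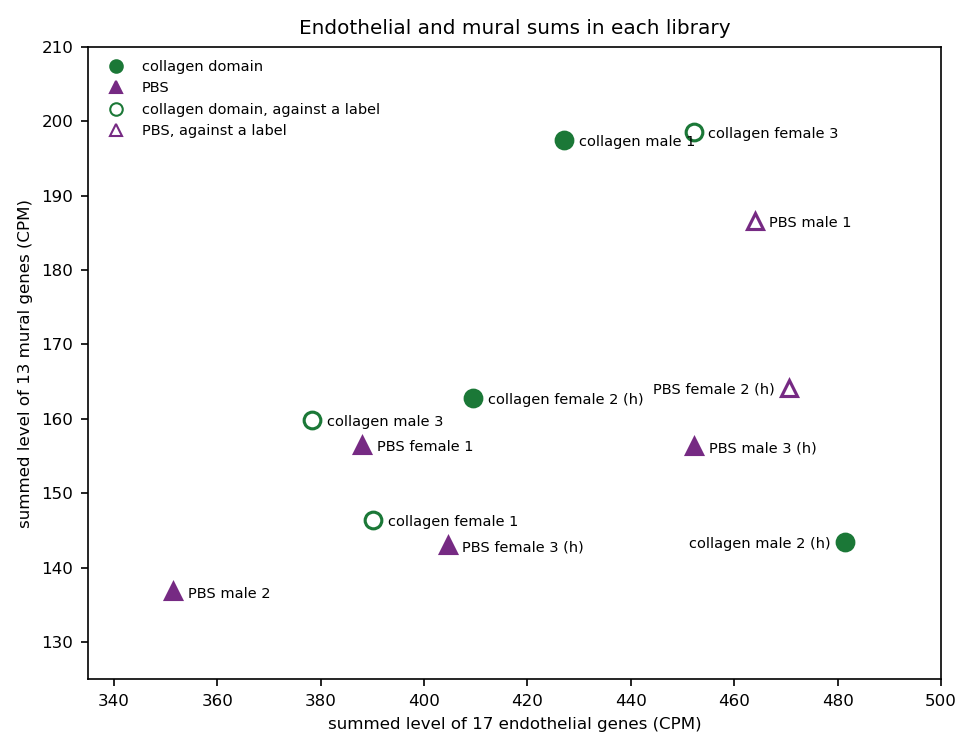
Summed CPM of the 17 endothelial genes (horizontal axis) and of the 13 mural genes (vertical axis) in each library; circles are collagen domain, triangles PBS, open symbols go against a label, and (h) marks high hindbrain genes. Axes do not start at 0. Collagen domain male 2 lies at the right end with a low mural sum, and PBS male 2 is lowest on both axes.

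The first comparison set collagen domain against PBS mice of both sexes by label, and so vector and construct together against buffer. With all 12 libraries taken by label, no vascular gene passed, and the tight junction gene Cldn5 came nearest. Its CPM was 21.5, 20.4 and 18.5 in collagen domain males 1 to 3 and 17.3, 18.2 and 21.2 in collagen domain females 1 to 3, against 19.4, 15.7 and 16.2 in PBS males 1 to 3 and 16.4, 16.1 and 15.8 in PBS females 1 to 3. The library labelled PBS male 1, with 2675 C1qtnf3 reads, was the one PBS library within the collagen domain range: the other 5 lay at or below 16.4 CPM. The other libraries against the treatment label lay on both sides. PBS female 2, with 1071 C1qtnf3 reads, had 16.1 CPM of Cldn5. Collagen domain females 1 and 3, with 23 and 8 such reads, had 17.3 and 21.2 CPM. Cldn5 averaged 19.5 ± 1.75 CPM with collagen domain and 16.6 ± 1.401 CPM with PBS (SD, n = 6 each). The log2 fold change was 0.23 (SE 0.0720), with an edgeR quasi-likelihood p of 0.00674 that Benjamini-Hochberg adjustment over 19145 genes took to 0.9999. Without each library in turn it stayed between 0.19 and 0.28, at an unadjusted edgeR p between 0.00210 and 0.0196.

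No gene at all was called in that comparison (0 percent), by edgeR, DESeq2 or limma-voom. With 4 libraries against the treatment label, C1qtnf3 itself was not called (log2 fold change 2.03, SE 1.55, edgeR p 0.220). The lack of called members by label thus cannot show that treatment left them unchanged. At an unadjusted edgeR p under 0.05 stood 1 of 30 members, against 1.85% of the genes tested (354). Fold changes lay above 0 for 19 of 30 members, against 50.1% of the genes tested, with a median of 0.05 against 0.00 on the log2 scale. Endothelial genes were above 0 in 11 of 17 and mural genes in 8 of 13. No member had ranges that did not overlap between treatments, against 0.0679% of the genes tested. Among receptors, Kdr averaged 9.35 ± 1.59 CPM with collagen domain and 7.90 ± 1.28 CPM with PBS, at a log2 fold change of 0.24 (SE 0.125), and Flt1 43.7 ± 7.76 and 39.1 ± 8.88 CPM, at 0.16 (SE 0.157). Mural receptors lay on the same side, Pdgfrb at 12.4 ± 1.47 CPM with collagen domain and 10.95 ± 1.72 CPM with PBS (log2 fold change 0.18, SE 0.116) and Notch3 at 10.4 ± 1.82 and 8.77 ± 2.07 CPM (0.24, SE 0.167). The remaining endothelial receptors lay nearer 0, Tie1 at 0.07 (SE 0.143) and Tek at 0.03 (SE 0.117). Among barrier transporters and pumps, Abcb1a lay at 0.03 (SE 0.121), Slc2a1 at -0.05 (SE 0.0924), Slco1a4 at -0.06 (SE 0.106) and Mfsd2a at -0.11 (SE 0.101), beside Ly6c1 at -0.13 (SE 0.107) and Itm2a at -0.10 (SE 0.124). None of these passed.

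**Figure D3:**
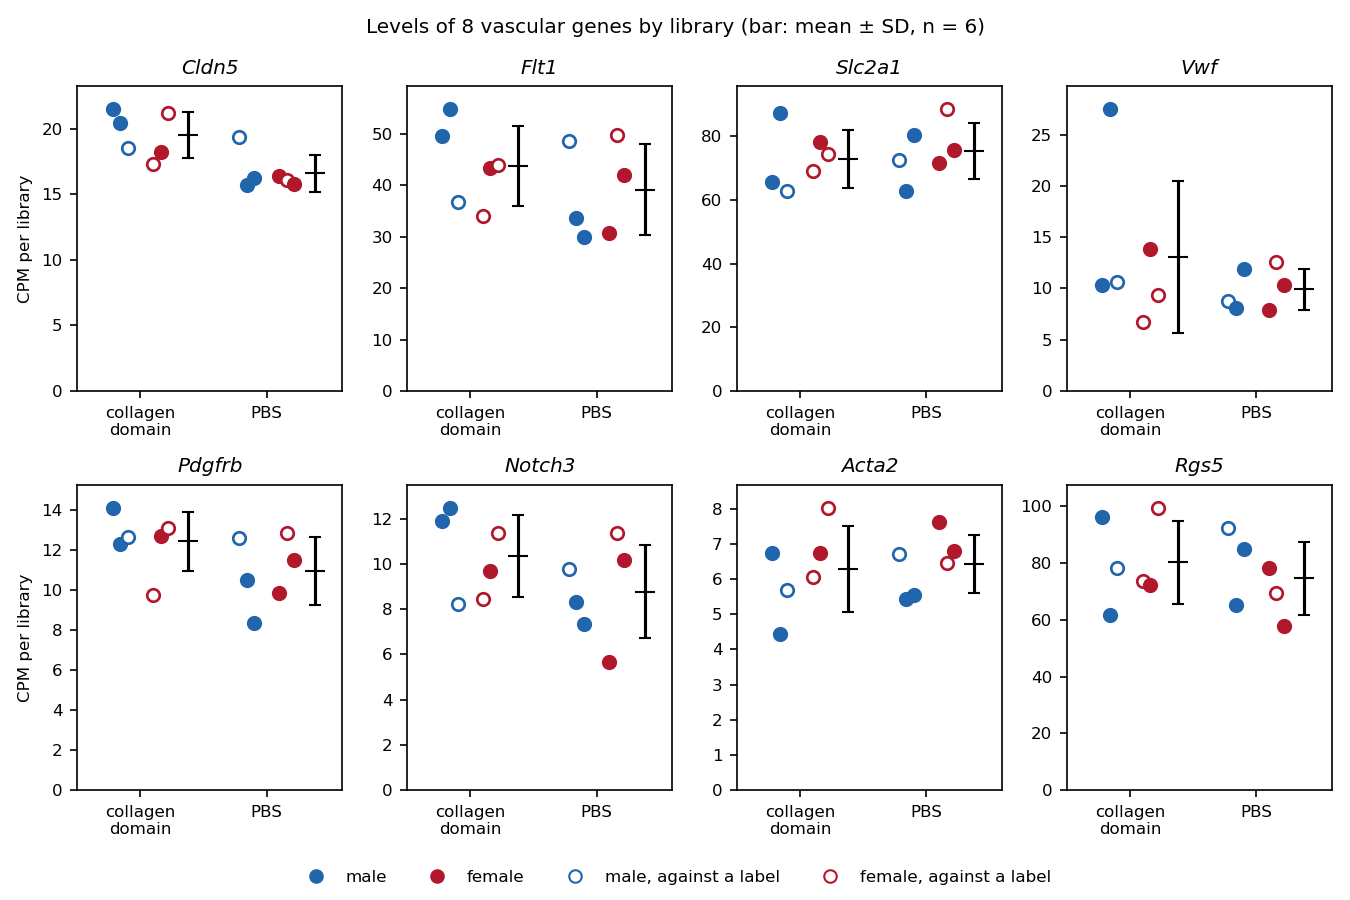
CPM of 8 vascular genes in each library, collagen domain left and PBS right, blue for male and red for female labels, open symbols for the 5 libraries against a label. Black bars are mean ± SD of 6 libraries. The treatments overlap in every panel, least in Cldn5, where 5 of 6 PBS libraries lie at or below 16.4 CPM and all collagen domain libraries lie above.

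Other vascular genes gave the same picture by label, with 0 called in each list. Of 20 further endothelial genes (transcription factors, surface proteins and nitric oxide synthase) 18 lay above 0, with a median of 0.10. Robo4, a guidance receptor that stabilises endothelium, had 4.24 ± 0.967 CPM with collagen domain and 3.43 ± 0.662 CPM with PBS, at a log2 fold change of 0.30 (SE 0.151). Of 20 further barrier genes 14 lay above 0 and 1 had an unadjusted edgeR p under 0.05, the thyroid hormone transporter Slco1c1, at 53.0 ± 3.41 CPM with collagen domain and 46.8 ± 5.03 CPM with PBS (log2 fold change 0.18, SE 0.0745). Of 19 further mural genes tested 10 lay above 0, at a median of 0.00. Foxf2, a transcription factor of brain pericytes, had the smallest p of that list, at a log2 fold change of 0.26 (SE 0.121).

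Angiogenic ligands and their helpers lay above 0 in 17 of 26, at a median of 0.06. Vegfa, the ligand of Flt1 and Kdr, had the smallest p of the list. Its CPM was 43.5, 53.5 and 43.3 in collagen domain males 1 to 3 and 41.5, 46.5 and 43.9 in collagen domain females 1 to 3, against 39.2, 37.0 and 31.6 in PBS males 1 to 3 and 32.9, 41.6 and 41.0 in PBS females 1 to 3. The treatments overlapped by 1 library on each side, collagen domain female 1 at 41.5 and PBS female 2 at 41.6 CPM. These libraries each go against their treatment label. The others against it, collagen domain female 3 at 43.9 and PBS male 1 at 39.2 CPM, lay with their label. The log2 fold change of Vegfa by label was 0.29 (SE 0.0851), with an edgeR p of 0.00554 and an adjusted p of 0.9999. Pdgfb, the endothelial ligand of Pdgfrb, stood at 0.17 (SE 0.106) and Apln, a peptide of sprouting endothelium, at 0.21 (SE 0.123).

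Lists of other cells were read beside the vascular genes. The 12 fibroblast and meningeal genes, of which 3 lay above 0, summed to 108 to 186 CPM with collagen domain and 115 to 167 CPM with PBS. The 10 choroid plexus genes, all above 0, summed to 377 to 982 and 370 to 766 CPM. The 6 erythroid genes, 1 above 0, summed to 404 to 910 and 546 to 905 CPM, and the 8 border macrophage genes, 1 above 0, to 11.2 to 16.9 and 12.6 to 17.9 CPM. None of the genes in these 4 lists was at 0 in any library, and their part in the vascular results was not tested.

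The same comparison without the libraries that contradict their labels had more vascular genes at low p, but still none that passed. Leaving out the 5 libraries against either label kept 3 collagen domain libraries (males 1 and 2, female 2) and 4 PBS libraries (males 2 and 3, females 1 and 3). In them 2 genes were called by edgeR (0.0102% of 19661), C1qtnf3 and an immunoglobulin gene, and 0 of 30 members. Unadjusted edgeR p was under 0.05 for 8 members, all higher with collagen domain, against 1.54% of all genes on that side and 5.79% on either. Fold changes lay above 0 for 23 of 30 members, against 49.2%, with a median of 0.20 against -0.00. An endothelial rise in these 7 libraries was known when the genes were chosen, so these counts are no independent support, and the 7 libraries were picked by C1qtnf3 and sex-linked reads. Leaving out 1 more library moved this count of 8, and also the 1138 of 19661 genes beside it. It was 2 without collagen domain male 1 (1007 of 19664 genes) and 3 without collagen domain male 2 (341 of 19625). Without collagen domain female 2 it was 6 (272 of 18943), and without PBS male 2 it was 4 (1926 of 19629). Without PBS male 3 it was 3 (591 of 19611) and without PBS female 1 it was 4 (696 of 19561). The count of 10 without PBS female 3 stood beside 2647 of 19568 genes.

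By p Flt1 led among them, and by fold change Vwf. The CPM of Flt1 was 49.6, 54.9 and 43.3 in collagen domain males 1 and 2 and female 2. In PBS males 2 and 3 and females 1 and 3 it was 33.7, 29.9, 30.7 and 42.0. These ranges of Flt1 did not overlap, while those of Vwf did. The log2 fold change of Flt1 was 0.52 (SE 0.146), with an edgeR p of 0.00866 and an adjusted p of 0.681. Flt1 kept an edgeR p under 0.05 in all 7 fits that left out 1 more library, with fold changes of 0.43 to 0.70.

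Junction genes and mural receptors stood beside it. Cldn5 had 21.5, 20.4 and 18.2 CPM in those collagen domain libraries, against 15.7, 16.2, 16.4 and 15.8 CPM in those PBS libraries, again with no overlap, at 0.29 (SE 0.0941). Pdgfrb had 14.1, 12.3 and 12.7 CPM, against 10.5, 8.35, 9.88 and 11.5 CPM, at 0.37 (SE 0.128) with no overlap. Cdh5 (0.38, SE 0.149), Esam (0.33, SE 0.127), Notch3 (0.48, SE 0.201), the matrix gene Vtn (0.34, SE 0.136) and Vwf (0.78, SE 0.330) completed the 8 with an edgeR p under 0.05, each at an adjusted p of 0.681. Unlike Flt1, none of these kept such a p in all 7 fits that left out 1 more library. Pdgfrb kept it in 5 fits, Cldn5 in 4, Esam and Vtn in 3 each, Cdh5 in 2, and Notch3 and Vwf in 1 each. The fold change of Vwf rested on collagen domain male 2: it was 0.32 without that library in the 7, and 0.04 in place of 0.36 without it in the 12.

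In total, 8 of 30 members had collagen domain ranges wholly above the PBS ranges in these 7 libraries, and 0 wholly below, against 3.67% and 2.66% of all genes. The 8 were Cldn5, Flt1, Tie1, Abcb1a, Esam, Pdgfrb, Abcc9 and Ndufa4l2. Members that lay lower with collagen domain were Higd1b at -0.64 (SE 0.430), Itm2a at -0.22 (SE 0.170), Ly6c1 at -0.19 (SE 0.184), Tagln at -0.14 (SE 0.152), Slco1a4 at -0.09 (SE 0.137), Acta2 at -0.04 (SE 0.167) and Ocln at -0.02 (SE 0.172), none with an edgeR p under 0.05. The other endothelial receptors stood at 0.30 (Kdr, SE 0.160), 0.21 (Tek, SE 0.156) and 0.32 (Tie1, SE 0.150), the pump Abcb1a at 0.23 (SE 0.124), and the transporters Mfsd2a and Slc2a1 at 0.09 (SE 0.118) and 0.07 (SE 0.134), all at an edgeR p above 0.05.

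**Figure D4:**
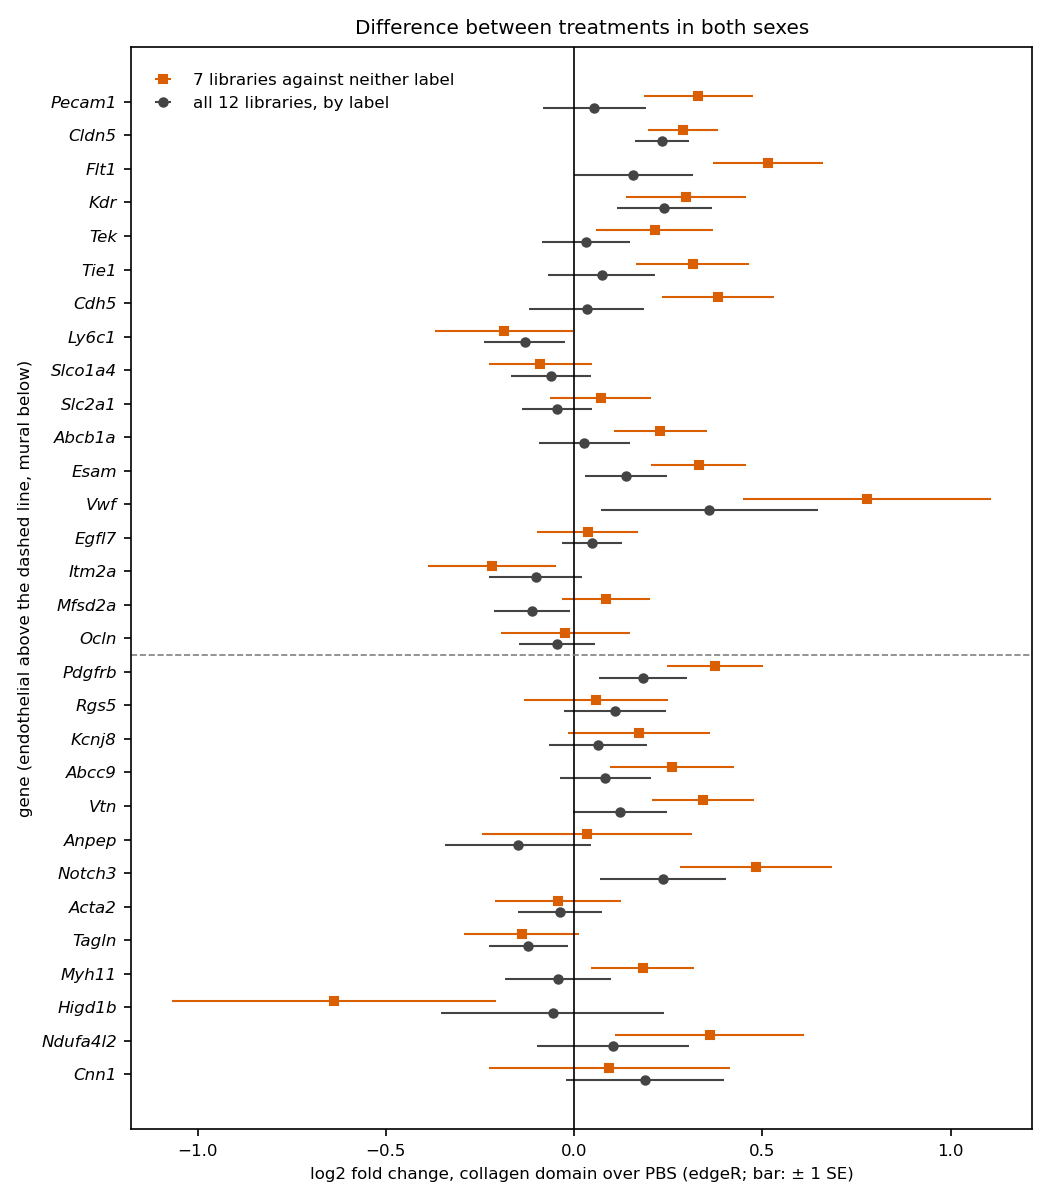
Log2 fold change of collagen domain over PBS in both sexes for the 30 vascular genes, from edgeR, with bars of 1 SE. Orange squares are the 7 libraries against neither label and grey circles all 12 by label. Most orange squares lie right of 0, led by Vwf at 0.78 and Flt1 at 0.52, and Higd1b lies farthest left at -0.64; none passed after adjustment in either fit.

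Other properties moved with the difference in these 7 libraries. The hindbrain list lay above 0 in 12 of 12 genes, at a median log2 fold change of 0.83; 2 of 3 collagen domain libraries and 2 of 4 PBS libraries were high in it. With that list's level in the model 4 members kept an edgeR p under 0.05 (Flt1, Cldn5, Pdgfrb and Vtn), with Flt1 at 0.50. Over all genes 923 of 19661 had such a p in that model. The other 4 stood at 0.35 (Cdh5), 0.32 (Esam), 0.44 (Notch3) and 0.53 (Vwf), with edgeR p of 0.0583, 0.0507, 0.0770 and 0.0517. Immediate early genes, which cells induce quickly on stimulation, lay below 0 in 12 of 12, at a median of -0.70, with 7 at an edgeR p under 0.05. Erythroid genes lay above 0 in 2 of 6, at a median of -0.11, with Hbb-bt and Hbb-bs, which encode beta globins, both at -0.56 (SE 0.161 and 0.162, edgeR p 0.00934 and 0.00980). Border macrophage genes lay above 0 in 4 of 8, at a median of -0.02, with the chemokine gene Pf4 at -0.997 (SE 0.330, edgeR p 0.0180). Fibroblast and meningeal genes lay above 0 in 8 of 12 (median 0.24, with 2 at an edgeR p under 0.05) and choroid plexus genes in 9 of 10 (median 0.16, with 0). The part of these lists in the vascular result was not tested. Longer genes also lay higher. In 4 bins of exon length, shortest to longest, the median over all genes was -0.15, -0.02, 0.03 and 0.06, and that over the members -0.14, 0.09, 0.22 and 0.31 (7, 7, 8 and 8 members). Against the median of their own length bin 24 of 30 members lay above, by a median of 0.19, while in the 12 libraries by label 19 of 30 did, by 0.04.

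Leaving out the 4 libraries against the treatment label alone gave 8 libraries. There 2 genes (0.0101%) and 0 members were called, 4 members had an unadjusted edgeR p under 0.05 all higher with collagen domain, against 1.47% of all genes on that side and 3.35% on either, and 23 of 30 lay above 0 against 53.2%. The 4 were Cldn5 at 0.28 (SE 0.0876), Flt1 at 0.45 (SE 0.162), Pdgfrb at 0.39 (SE 0.119) and Vtn at 0.34 (SE 0.122).

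RefSeq promoter windows of the GRCm38.p6 build, 250 bases before to 50 after a gene's start, were at hand for 21 of the 30 members (25 windows). They were searched for GGAA on both strands, the core of binding sites of ETS factors, which include the endothelial factors Erg and Fli1. It lay in 22 of 25 windows (88.0%), against 96.0% of all 32851 windows, so the core letters did not set these genes apart. The windows of the genes that the treatment and hindbrain comparisons turn on are shown 5′ to 3′ with each GGAA match in capitals: Cldn5 (chr16:18776597-18776896, plus strand) with 0 matches, Flt1 (chr5:147725962-147726261, minus strand) with 4, and Slc2a1 (chr4:119108495-119108794, plus strand) with 0. A match is a description of the letters and not a site of binding.
Cldn5: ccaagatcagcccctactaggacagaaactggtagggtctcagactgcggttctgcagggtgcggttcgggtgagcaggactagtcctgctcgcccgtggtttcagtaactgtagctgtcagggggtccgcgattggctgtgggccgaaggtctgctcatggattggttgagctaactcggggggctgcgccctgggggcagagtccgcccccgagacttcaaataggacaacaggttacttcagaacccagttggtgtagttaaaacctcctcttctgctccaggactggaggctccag
Flt1: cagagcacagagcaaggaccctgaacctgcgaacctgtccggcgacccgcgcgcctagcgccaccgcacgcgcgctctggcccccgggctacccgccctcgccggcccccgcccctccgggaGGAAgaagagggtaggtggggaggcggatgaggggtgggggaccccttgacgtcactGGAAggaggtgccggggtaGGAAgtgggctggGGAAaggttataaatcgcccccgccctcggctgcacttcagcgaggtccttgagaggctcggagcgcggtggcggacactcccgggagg
Slc2a1: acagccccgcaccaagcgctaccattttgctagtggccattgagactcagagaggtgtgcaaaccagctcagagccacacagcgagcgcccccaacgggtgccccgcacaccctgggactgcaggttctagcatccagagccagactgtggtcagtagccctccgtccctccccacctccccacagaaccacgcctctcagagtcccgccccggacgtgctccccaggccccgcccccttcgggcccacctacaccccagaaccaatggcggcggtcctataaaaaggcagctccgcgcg

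Between male and female labels no vascular gene passed either. Acta2, the smooth muscle actin, had the smallest p: its CPM ran from 4.43 to 6.76 in the 6 libraries labelled male and from 6.07 to 8.03 in the 6 labelled female, with an overlap. The log2 fold change of male over female was -0.27 (SE 0.111, edgeR p 0.0304, adjusted p 0.9997), and Myh11, its myosin partner, stood at -0.26 (SE 0.140). By edgeR and limma-voom 0 genes (0 percent) were called and by DESeq2 8, none of them a member, and 1 of 30 members had an unadjusted p under 0.05, against 1.97% of all genes. The sex labels go against the reads in 4 of the 12 libraries, and edgeR called neither Xist nor Ddx3y by label. The comparison by label thus cannot show that members did not differ by sex. In the 7 libraries against neither label edgeR called 8 of 19661 genes and 0 members. There Acta2 stood at -0.34 (SE 0.166, edgeR p 0.0781) and Myh11 at -0.32 (SE 0.137, edgeR p 0.0478). Of the 30 members 1 had an edgeR p under 0.05, beside 416 of 19661 genes.

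Within the sexes 0 genes (0 percent) were called by edgeR in males or in females; DESeq2 called 3 in males and 0 in females, none a member. Unadjusted edgeR p was under 0.05 for 1 of 30 members in males (Cldn5, at 0.24, SE 0.107), against 1.70% of all genes, and for 0 in females, against 1.46%, where Cldn5 stood at 0.23 (SE 0.107). Without PBS male 1 the count in males was 5 (Cldn5, Flt1, Esam, Pdgfrb and Vtn), beside 366 of 19421 genes. Without collagen domain male 3 it was 3 (Cldn5, Esam and Vwf), beside 391 of 19412 genes. Without PBS male 2 it was 2 (Ly6c1 and Itm2a, both below 0), beside 622 of 19441 genes. It was 0 without collagen domain male 2, collagen domain females 1 or 2 or any 1 of the PBS females, beside 294 to 385 genes. In females it was 1 without collagen domain female 1, collagen domain female 2 or PBS male 1. Beside it stood 287 of 19435, 474 of 19404 and 260 of 19421 genes.

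Within males without the 5 libraries against a label, 2 collagen domain and 2 PBS libraries were left, and 1 gene (0.00509%) was called, C1qtnf3, by which the libraries were picked. There 6 of 30 members had an unadjusted edgeR p under 0.05, against 1.44% of all genes: Flt1 at 0.70 (SE 0.174), Cdh5 at 0.51 (SE 0.201), Esam at 0.48 (SE 0.162), Pdgfrb at 0.47 (SE 0.179), Vtn at 0.45 (SE 0.183) and Cldn5 at 0.37 (SE 0.135), each at an adjusted p of 0.9992. Without the 4 against the treatment label it was 4 members (Cldn5, Flt1, Pdgfrb and Vtn), against 1.34% of all genes, with C1qtnf3 again the 1 gene called (0.00507%). Within females collagen domain female 2 was left alone against 2 PBS libraries, so its spread is assumed to be that of the other groups; 0 of 30 members had an unadjusted p under 0.05, against 1.70% of all genes, and C1qtnf3 was the 1 gene called (0.00509%).

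The male effect minus the female effect of Cldn5 in the 12 libraries was 0.00 (SE 0.152), and no member had an unadjusted edgeR p under 0.05 in this test of the difference, against 1.37% of all genes, nor was any gene called by edgeR (0 percent), with 1 called by DESeq2 that was no member. In the 7 libraries that difference was 0.46 for Flt1 (SE 0.275, edgeR p 0.144, adjusted p 1). The largest member value in the 12 was that of Vwf, 0.80 (SE 0.544), with 0.76 (SE 0.385) in males and -0.04 (SE 0.384) in females.

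Libraries high and low in hindbrain genes, a split that the labels do not give, were compared by range. Slc2a1, the glucose transporter, was the one member whose ranges did not overlap: its CPM was 87.3, 78.3, 80.4, 88.7 and 75.7 in collagen domain male 2, collagen domain female 2, PBS male 3, PBS female 2 and PBS female 3, against 62.8 to 74.6 CPM with a median of 69.1 in the 7 libraries low in hindbrain genes. Among all genes 5.06% were wholly higher and 2.79% wholly lower in the same split, so 1 of 30 members is near that background. With the hindbrain level in the 12-library treatment model the SE of Slc2a1 was 0.0563, against 0.0924 without it, and its log2 fold change -0.00. Vwf then stood at 0.43 (SE 0.134), with an edgeR p of 0.00801 and an adjusted p of 0.849.

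Collagen domain male 2 stood apart in endothelial genes beyond the 30, named here after their values were seen. Vwf reached 27.5 CPM in that library, against 6.77 to 13.8 CPM in the other 11. Podxl, a sialomucin of the vessel lining, reached 47.1 CPM against 20.2 to 29.0 CPM, and Slc38a5, a glutamine transporter of barrier endothelium, 9.62 CPM against 1.15 to 3.17 CPM. Lrg1, a glycoprotein that activated venules make, reached 5.90 CPM against 0.420 to 1.49 CPM. The leukocyte-catching selectins Sele and Selp were highest there too, at 0.489 and 0.396 CPM, with 0.0887 and 0.0706 CPM in the next library. The adhesion receptor Vcam1 was not apart, at 31.6 CPM, within the 26.4 to 32.8 CPM of the other 11. Collagen domain male 2 was also highest in hindbrain genes (816 CPM), highest in erythroid genes (910 CPM), and lowest in immediate early genes (220 CPM); the part of these in its endothelial levels was not tested.

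**Figure D5:**
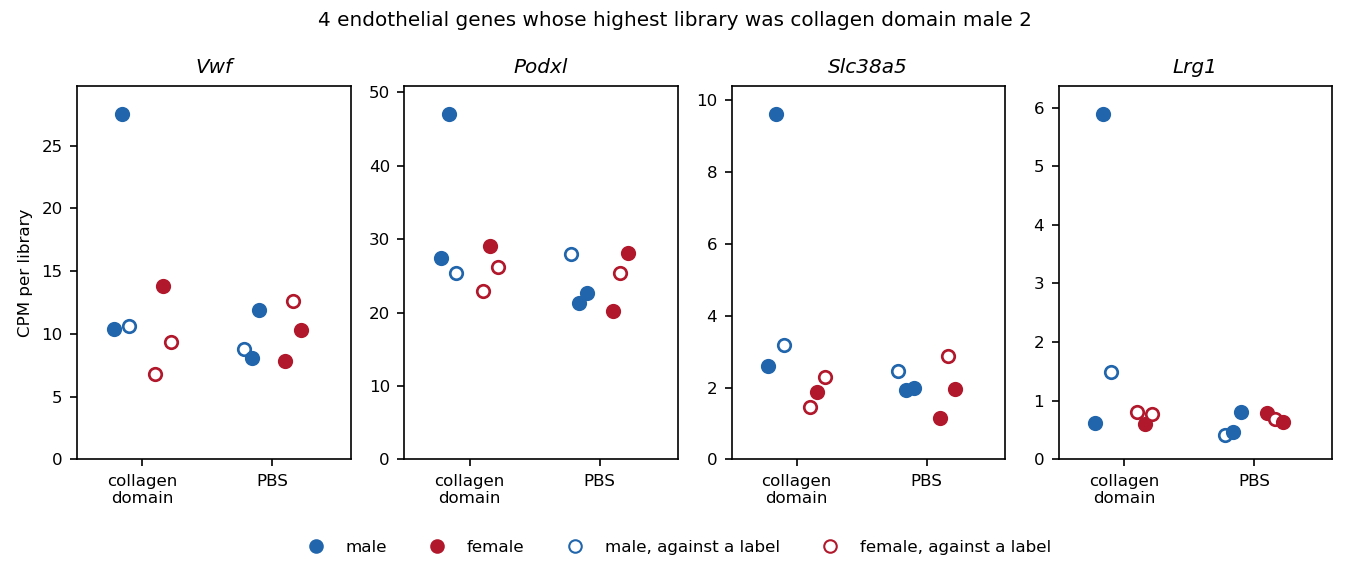
CPM of Vwf, Podxl, Slc38a5 and Lrg1 in each library, collagen domain left and PBS right, blue for male and red for female labels, open symbols for libraries against a label. Collagen domain male 2 is the highest point in each panel, at 27.5, 47.1, 9.62 and 5.90 CPM; the genes were chosen for this library after their values were seen.

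Genes of 1 functional unit were compared across libraries, 7 pairs in all, by permutation tests of log2(CPM + 1). Acta2 and Myh11 of the contractile apparatus had Pearson's r = 0.766 (permutation p = 0.00338, adjusted over the 7 pairs 0.0197) and Spearman's rho = 0.671 (p = 0.0207, adjusted 0.0762) over 12 libraries. Pdgfrb and Notch3, the mural receptors, had r = 0.752 (permutation p = 0.00818, adjusted 0.0197) and rho = 0.664 (p = 0.0218, adjusted 0.0762). Without the 2 libraries farthest from the median of the first gene, r was 0.779 and 0.792 for these pairs, and both passed again by Pearson's r (adjusted permutation p 0.0482 each), while rho was 0.539 and 0.552 (adjusted permutation p 0.336 each).

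Acta2 and Tagln had r = 0.700 (permutation p = 0.00844, adjusted 0.0197; rho = 0.615, p = 0.0376, adjusted 0.0877), and r = 0.627 without the 2 farthest libraries, which no longer passed (adjusted permutation p 0.127). The channel subunits Kcnj8 and Abcc9 had r = 0.606 (permutation p = 0.0194, adjusted 0.0340; rho = 0.497, p = 0.102, adjusted 0.142), and r = 0.477 without the 2 farthest (adjusted permutation p 0.230), which no longer passed; it was 0.740 in the 7 libraries low in hindbrain genes (adjusted permutation p 0.0444). Flt1 with Kdr (r = 0.597, permutation p = 0.0390, adjusted 0.0546; rho = 0.552, p = 0.0666, adjusted 0.117) and Tie1 with Tek (r = 0.481, permutation p = 0.114, adjusted 0.133; rho = 0.357, p = 0.254, adjusted 0.296) did not pass. Cldn5 with Ocln, both of the tight junction, did not pass either (r = -0.03, permutation p = 0.955, adjusted 0.955; rho = 0.196, p = 0.541, adjusted 0.541). For this pair r was 0.168 without the 2 farthest libraries, 0.555 in the 7 libraries low in hindbrain genes and 0.114 without the 5. None of these passed (adjusted permutation p 0.628, 0.207 and 0.761). Within the 7 libraries low in hindbrain genes 5 of 7 pairs passed by Pearson's r, Acta2 with Tagln highest at 0.949 (adjusted permutation p 0.0361), and 0 by Spearman's rho; without the 5 libraries against a label 0 of 7 passed by Pearson's r after adjustment. In those 7 libraries r was 0.816 for Acta2 with Myh11, 0.792 for Pdgfrb with Notch3, 0.626 for Acta2 with Tagln, 0.621 for Kcnj8 with Abcc9 and 0.758 for Flt1 with Kdr. Both genes of a pair come from the same library, and share its depth and its vascular content.

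Close copies were read beside their members, since how the counting treated shared reads is not stated. Ly6c2, a near copy of Ly6c1 that monocytes express, had 3.02, 1.75 and 1.31 CPM in collagen domain males 1 to 3 and 1.25, 2.81 and 1.397 CPM in collagen domain females 1 to 3, against 3.34, 2.66 and 5.39 CPM in PBS males 1 to 3 and 4.11, 3.02 and 2.81 CPM in PBS females 1 to 3. The treatments overlapped, and the log2 fold change was -0.88 (SE 0.261, edgeR p 0.00521, adjusted p 0.9999), so Ly6c1 is uncertain by whatever share of reads it holds in common. In the 7 libraries against neither label Ly6c2 stood at -0.59 (SE 0.325, edgeR p 0.110). Abcb1b, a copy of Abcb1a, stood at 0.02 (SE 0.0883) in the 12 libraries. Actg2, a copy of Acta2, had 0 to 5 reads and was not tested.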

How the data were processed

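Poly(A) RNA of 12 mouse forebrain samples was sequenced in pairs of 75 bp after an Illumina preparation without strand information, per the labels' protocols. The authors deposited raw whole-number read counts for each Ensembl gene ID. Per the submitters' processing notes, STAR, DESeq2 and the GRCm39 build were used, with no role given; versions, counting tool and annotation release are not given in the sources used here, nor is the treatment of reads shared by copies, and reads of overlapping or antisense genes cannot be told apart. Symbols came from GENCODE M21 names for 42462 of 43629 IDs. The annotation at hand is of another build, so gene coordinates are not given except for the RefSeq promoter windows, with their own build. Exon lengths are the merged exons of that annotation.

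The main test was the two-sided quasi-likelihood F-test of edgeR 4.0.16 (R 4.3.3) after TMM scaling, on the 19145 genes that filterByExpr kept for the 4 groups, with Benjamini-Hochberg adjustment over all of them and a threshold of 0.05. An additive model of sex and treatment gave the effects over both sexes and between the sexes. A model of 4 groups gave the effect within each sex and the interaction. CPM is on the TMM scale, and ± gives the SD. Libraries of 1 labelled group differed beyond sampling noise (chi-square per degree of freedom 11.1 to 94.6 over 12 pairs), so none repeated another of its group. Libraries of different groups were not compared in this way. Such a difference does not show that libraries came from separate mice. Pairs of genes were compared by permutation tests with 100000 resamples in scipy 1.17.1. The edgeR fits of 12 libraries were checked on simulated data.

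The treatment label was taken as contradicted by fewer than 1000 C1qtnf3 reads with collagen domain, or by at least 1000 with PBS, and the sex label by whichever of Xist and Ddx3y was higher. High and low hindbrain libraries lie above and below the mean of the hindbrain list. The 30 genes, 11 further gene lists, 7 pairs and all tests were chosen with earlier results of these data known. All 30 are named; from each other list up to 4 genes of smallest p in the treatment comparison were eligible to be named, and exceptions are marked. Alternatives were DESeq2 1.42.0, limma-voom (limma 3.58.1), relative log expression factors, no filter, a threshold of 0.1, a replicate block, hindbrain or fibroblast and meningeal covariates, leaving out the 4 or 5 libraries against labels, and leaving out each library. Leaving out the 5 together with a hindbrain covariate, and leaving out each of the 7 that remain, were added after seeing the data. Among the 30, Cnn1 (12 to 24 reads a library) and Ndufa4l2 (25 to 72) had the lowest read minima. Every other gene had at least 39 reads in each library.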

Additional observations from a re-analysis of the deposited data

Results flagged for a closer look

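Among 60 groups of 6 libraries (30 genes in each treatment), 3 held a library far from the other 5 by the ratio of its gap to the whole range (critical value 0.625 for 6 libraries). Chance gives about 1 in 20 such groups, which for 60 groups is 3. Vwf stood at 27.5 CPM in collagen domain male 2, with a gap of 0.662 of the range. Ocln, the tight junction gene occludin, stood at 11.8 CPM in the same library, with a gap of 0.70 of the range of the collagen domain libraries. Cldn5 stood at 19.4 CPM in the library labelled PBS male 1, with a gap of 0.803 of the range of the PBS libraries. That library held 2675 C1qtnf3 reads and is one of the 4 against their treatment label. None of the others against that label was flagged for Cldn5, and collagen domain female 3, with 8 such reads, stood at 21.2 CPM.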

How the results depend on the processing

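In every fit run, 0 of 30 vascular genes were called. The 5 comparisons were all run in each setting except leaving out the 5 with a hindbrain covariate and leaving out each of the 7, which were run for treatment in both sexes and between the sexes. Counts over all genes moved. For treatment in both sexes, 0 genes by label became 2 without the 4 libraries against the treatment label, 2 without the 5 against either label and 1 without the 5 with a hindbrain covariate; leaving out each of the 12 gave 0 throughout, and each of the 7 gave 1 to 2. Members at an unadjusted p under 0.05, 1 by label, were 2 with the hindbrain covariate (Vwf joined Cldn5), 4 without the 4, 8 without the 5 and 4 without the 5 with the covariate. Over all genes the counts in these fits were 354, 720, 660, 1138 and 923, in the same order. Leaving out each of the 12 gave 1 to 2 members (Pdgfrb joined without collagen domain female 1, Kdr without PBS male 1), beside 296 to 501 genes. Each of the 7 gave 2 to 10 members, beside 272 to 2647 genes. Between the sexes, 0 genes became 8 with DESeq2, 1 without the 4, 8 without the 5, 6 with the covariate added, 0 to 5 without each of the 12, highest without PBS male 3, and 5 to 9 without each of the 7. Within females 1 gene, C1qtnf3, by which libraries were left out, was called without the 4 and 1, the same, without the 5; both leave collagen domain female 2 alone in its group. Within males it was 3 with DESeq2, 1 without the 4 and 1 without the 5 (C1qtnf3 in both), and 0 to 1 without each of the 12, with 1 without collagen domain female 3. The interaction called 1 gene with DESeq2. Gene pairs that passed by Pearson's r, 4 of 7, were 2 without the 2 farthest libraries and 0 without the 5. Causes of these shifts were not tested; fits without the 4 or 5 also have fewer libraries.

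For treatment in both sexes 12 of 30 members kept their sign in every setting: Cldn5, Esam, Flt1, Kcnj8, Kdr, Notch3, Pdgfrb, Vtn and Vwf above 0, Itm2a, Ly6c1 and Tagln below. Replicate numbers did not pair the libraries: deviations of same-numbered libraries correlated at -0.331 to 0.663 over 18 pairs, and 5 of 12 libraries correlated best with one of their own number. With the replicate block 0 genes were called for treatment in both sexes. There 1 member had an unadjusted p under 0.05, against 355 of 19145 genes. With 3 libraries per group, small differences of any member could be missed, not only those of the weakly read Cnn1 and Ndufa4l2. In the 12 libraries the SE of the treatment effect was largest for Higd1b, at 0.296. It was 0.210 for Cnn1 and 0.201 for Ndufa4l2.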
